A study of Homo sapiens with 4 samples.

Results

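The promoters of keratin (KRT) and keratin-associated protein (KRTAP) genes were examined in HEK293T cells, a human embryonic kidney line, with and without MORC2. Members were all promoter rows whose gene symbol is KRT followed by a number and at most 1 letter, or KRTAP followed by a pair of numbers. This gave 145 of the 28775 promoter rows, of which 57 were KRT and 88 were KRTAP. KRT87P and KRT42P, which are annotated as pseudogenes, fall under the same pattern of letters and were kept. The group was selected on results of these same 4 libraries, namely its low accessibility and the lower KRT36 promoter in MORC2 knockout (KO) cells, so levels and KO-to-WT differences are given below as descriptions. No p-value of a member is printed. Members past a threshold are counted, and some are named and described, with nothing concluded from their being called. Of 162 gene symbols that match the pattern in the gene table, 17 had no row and were not analysed here. These were 11 symbols that end in P and 6 KRTAP genes (KRTAP5-1, KRTAP5-5, KRTAP5-10, KRTAP9-6, KRTAP9-7 and KRTAP9-8).

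The assay was ATAC-seq, which counts DNA fragments that the transposase Tn5 has cut out of exposed chromatin, and the libraries were 2 of wild-type (WT) and 2 of MORC2 KO HEK293T cells. The KO cells were bulk pools edited with Cas9 and 1 guide RNA per pool, a different guide for each replicate, so KO replicate and guide cannot be told apart. The labels name no treatment of either group. Nuclear promoters held 6119609 to 12036024 fragments per library, with the most in KO replicate 2, and mitochondrial rows took 20.6% to 35.1% of all counts. The promoter of MORC2 itself was called higher in KO, with 403 and 639 fragments against 247 and 267 in WT (log2 fold change 0.43, SE 0.09). A promoter count does not show the loss of the protein, so it is no check of the knockout. Among promoters of genes typical of this kidney line with neural features, LHX1 and NEFL lay above the median of all promoters, whereas PAX2 and NEFM lay below it. None of 4 keratinocyte promoters (KRT5, KRT14, DSG3 and TP63), of 3 blood or of 2 muscle marker promoters did so, and 1 of 2 liver marker promoters did (APOA2).

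Keratins are the intermediate filament proteins of epithelial cells. An acidic type I and a basic type II keratin pair to build the filament. The type I genes lie together on chromosome 17 and the type II genes on chromosome 12, with the exception of KRT18, a type I gene that lies beside its type II partner KRT8. In hair, filaments of hair keratins are embedded in a matrix of KRTAP proteins, which are rich either in cysteine (the high and ultra-high sulfur families) or in glycine and tyrosine. KRTAP genes are small, are found in dense arrays on chromosomes 11, 17 and 21, and are normally used in the hair follicle, so kidney-derived cells are not a tissue in which most of these genes are known to act.

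Promoter sequences show what kind of start sites these are. Sequences came from a RefSeq table on GRCh38.p14, whereas the reads were aligned to CHM13, so they describe the gene start and not the counted window. The table held 300 bases around the start for 112 of the 145 members, which is under the 80% taken as the least for a summary over all members, and a summary over the whole group was therefore void. For KRTAP genes 78 of 88 (88.6%) had a single window. Their median GC content was 42.3% (range 31.3 to 62.7), against 58.7% over all 35116 windows of the table. The median KRTAP window held 2 CG dinucleotides, against 14 over all windows. TATAAA, read on either strand, was present in 62 of 78 KRTAP windows (79.5%), against 11.5% of all windows. GGGCGG was present in 1 of them (1.28%, against 44.95%), and CCAAT in 39.7%, against 34.6% of all windows. The CCAAT share was 61.3% in the chromosome 17 array (19 of 31 windows) and 6.67% in the KRTAP10 block (1 of 15). These letters are a description of the sequence and do not mark a bound site. Among KRTAP windows GC content went with WT accessibility (Spearman's rho 0.59, n = 78), and did so to a lower degree within the chromosome 17 array (0.38, n = 31), the first chromosome 21 array (0.56, n = 30) and the second (0.45, n = 15). These points share libraries, depth and base composition, so no test was made. Only 11 of the 78 windows shared any 65-base word, the length of a read, with the window of another gene. KRTAP10-2 and KRTAP10-10 were among these, and the others lay in the chromosome 17 array, KRTAP2-2 and KRTAP4-9 included. The comparison covers the 300 bases on GRCh38.p14 and not the counted window. Loss of poorly mapped read pairs in the counted windows was not tested.

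The 250 bases before the start are shown for the 5 members that were called lower in KO (KRT36, KRT9, KRT27, KRTAP2-2 and KRTAP19-8), for KRT35, the neighbour of KRT36 in gene order, and for KRTAP10-7, the most accessible KRTAP promoter. Capitals mark CG dinucleotides and TATAAA, and each sequence ends at the base before the start. They lie at chr17:41489911-41490160 (minus strand), chr17:41481152-41481401 (minus strand), chr17:41572060-41572309 (minus strand), chr17:40782551-40782800 (minus strand), chr17:41055231-41055480 (minus strand), chr21:31038477-31038726 (minus strand) and chr21:44600347-44600596 (plus strand).
KRT36: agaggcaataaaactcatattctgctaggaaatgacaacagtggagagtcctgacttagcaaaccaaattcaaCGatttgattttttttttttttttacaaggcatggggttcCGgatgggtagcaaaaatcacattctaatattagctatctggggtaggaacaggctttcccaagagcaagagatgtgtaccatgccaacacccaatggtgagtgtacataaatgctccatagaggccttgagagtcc
KRT35: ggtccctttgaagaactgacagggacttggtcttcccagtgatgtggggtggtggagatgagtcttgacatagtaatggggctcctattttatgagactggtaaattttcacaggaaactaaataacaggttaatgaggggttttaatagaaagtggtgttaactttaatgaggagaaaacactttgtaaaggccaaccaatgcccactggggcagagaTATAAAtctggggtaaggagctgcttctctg
KRT9: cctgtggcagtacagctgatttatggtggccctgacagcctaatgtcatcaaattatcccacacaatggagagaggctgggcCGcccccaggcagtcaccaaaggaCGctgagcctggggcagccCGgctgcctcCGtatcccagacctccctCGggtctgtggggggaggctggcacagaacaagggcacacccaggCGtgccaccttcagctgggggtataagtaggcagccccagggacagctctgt
KRT27: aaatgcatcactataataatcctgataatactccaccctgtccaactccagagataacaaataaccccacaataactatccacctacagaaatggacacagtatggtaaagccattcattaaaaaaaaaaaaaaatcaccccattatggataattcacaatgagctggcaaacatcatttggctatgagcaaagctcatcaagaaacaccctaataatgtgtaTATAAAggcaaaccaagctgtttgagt
KRTAP2-2: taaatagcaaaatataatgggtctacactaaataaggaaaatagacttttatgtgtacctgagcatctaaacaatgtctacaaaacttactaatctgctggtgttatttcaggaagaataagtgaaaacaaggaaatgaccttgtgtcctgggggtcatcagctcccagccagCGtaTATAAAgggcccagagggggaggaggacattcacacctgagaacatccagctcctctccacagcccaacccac
KRTAP19-8: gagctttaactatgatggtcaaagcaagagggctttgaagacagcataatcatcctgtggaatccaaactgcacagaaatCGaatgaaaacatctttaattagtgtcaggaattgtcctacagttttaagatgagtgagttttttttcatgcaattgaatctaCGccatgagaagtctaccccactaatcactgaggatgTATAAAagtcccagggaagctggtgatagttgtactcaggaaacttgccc
KRTAP10-7: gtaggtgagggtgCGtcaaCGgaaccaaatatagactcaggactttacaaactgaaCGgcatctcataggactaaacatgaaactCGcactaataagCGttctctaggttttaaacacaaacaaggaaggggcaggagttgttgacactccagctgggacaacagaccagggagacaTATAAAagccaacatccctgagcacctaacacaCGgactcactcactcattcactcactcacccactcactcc
TATAAA was found in 5 of these 7 sequences. It began 31 bases before the start of KRT35, 27 bases before that of KRT27, 50 before that of KRTAP19-8 and 73 before that of both KRTAP2-2 and KRTAP10-7. Neither KRT36 nor KRT9 had it in this stretch. KRT9 had the highest GC content of the 7 (62.0%) and, with KRTAP10-7, the most CG dinucleotides (6), whereas KRT35 and KRT27 had none. Of the 10 type I hair keratins with a single window, 8 had TATAAA, and KRT36 and KRT32 were those without it.

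Keratin and KRTAP promoters were little accessible in WT cells. Levels are given as CPM, fragments scaled to the size of the library by TMM, where 1 fragment is worth between 0.0586 and 0.111 CPM depending on the library, and each level is a count per promoter window. The median member stood at 2.91 CPM, against 14.6 CPM for all nuclear promoters. The 145 members together took 4933 and 4439 fragments in WT replicates 1 and 2, or 0.0747% and 0.0725% of nuclear counts. In KO they took 4719 and 7014 fragments, or 0.0616% and 0.0583%. Every member had fragments in every library, with 6 as the lowest count (KRTAP4-9 in KO replicate 1). By WT level, 37 members lay below the 10th percentile of nuclear promoters, 91 below the 25th and all 145 below the 50th. The proposal that the clusters hold a few open keratins did not hold on this scale, since no member was above the median promoter in any of the 4 libraries. Olfactory receptor promoters, a large family of genes silent outside the nose, had a median of 2.11 CPM over 422 rows, below that of all members. The 88 KRTAP promoters alone were close to this, with a median of 2.20 CPM, whereas the 57 KRT promoters had one of 4.00 CPM. Medians of the glycine-tyrosine (1.91 CPM) and ultra-high sulfur (1.97 CPM) KRTAP classes lay below that of the olfactory receptors.

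The highest levels were found at KRT80, KRT18 and KRT8. KRT80, a type II keratin of many epithelia, had 124 and 101 fragments in WT (12.9 and 11.2 CPM) and 115 and 187 in KO (10.5 and 10.96 CPM). Its mean WT level lay at the 47.4th percentile. The row before it in gene order, the pseudogene OR7E47P, held 125 and 114 in WT and 114 and 204 in KO, so that counts of neighbouring rows may not be independent. KRT18 had 96 and 145 fragments in KO and 96 and 87 in WT, and KRT8 had 93 and 138 in KO and 88 and 85 in WT. This pair, the first keratins to be made in the embryo and the standard filament of simple epithelia, stood at 9.80 ± 0.24 and 9.28 ± 0.19 CPM in WT (SD, n = 2), at the 44.7th and 44.0th percentiles. The counts of KRT8 and KRT18 differed by at most 8 fragments in every library, and which start of a gene with several starts was counted is not given in the sources used here. KRT7, a keratin of ducts and other simple epithelia, stood at 6.68 ± 0.83 CPM. KRT19, a type I keratin of similar tissues, stood at 5.54 ± 0.78 CPM and KRT20, a keratin of the intestinal lining, at 3.62 ± 0.90 CPM.

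Next in the order came genes of the hair matrix, a hair keratin, a pseudogene and KRT17, a keratin of hair and nail that epidermis makes under stress. KRTAP10-7 stood at 8.30 ± 0.46 CPM, KRTAP10-4 at 8.04 ± 0.06, the hair keratin pseudogene KRT87P at 7.91 ± 1.2, KRT36 at 7.23 ± 2.6, KRT17 at 7.20 ± 1.4 and KRTAP10-10 at 6.80 ± 0.22. Neighbours in this order from KRTAP10-7 to KRT7 differed by less than the SD of at least one of the pair, so their order is not resolved. The keratins of stratified epidermis were lower. KRT5 and KRT14, the pair of the basal layer, stood at 4.75 ± 1.1 and 5.56 ± 0.66 CPM. KRT1 and KRT10, the pair of the layers above, stood at 3.21 ± 0.16 and 2.35 ± 0.35 CPM. The lowest keratin was KRT6C (1.27 ± 0.55 CPM) and the lowest member of all KRTAP3-2 (1.12 ± 0.33 CPM, with 13 and 8 fragments in WT). KRT6A, KRT6B and KRT6C are near-identical copies, and read pairs that map poorly to a single place were discarded by the authors, so their levels are uncertain.

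Within both families, levels differed between genomic blocks. The members fell into 8 blocks of neighbouring rows (see the plot of levels by block). The 31 KRTAP promoters from KRTAP3-3 to KRTAP17-1 on chromosome 17, most of which make high or ultra-high sulfur proteins, had the lowest median, 1.62 CPM. Some of these promoters share 65-base words with another gene, and loss of poorly mapped read pairs was not tested. The 12 keratin promoters from KRT222 to KRT40 on their one side had a median of 2.35 CPM, and the 17 from KRT33A to KRT42P on the other side one of 4.69 CPM. On chromosome 12 the 28 promoters from KRT80 to KRT18 had a median of 4.61 CPM. On chromosome 21 the 33 KRTAP promoters from KRTAP24-1 to KRTAP19-8, many of the glycine-tyrosine families, had a median of 2.15 CPM, and the 16 from KRTAP10-1 to KRTAP10-12, which lie inside the gene TSPEAR, had one of 5.36 CPM. Both KRTAP5 blocks on chromosome 11, with 4 rows each, had medians of 4.23 and 3.67 CPM. Ranges overlapped between most blocks, but none of the 31 promoters of the chromosome 17 array was above 3.78 CPM, whereas 15 of the 16 of the KRTAP10 block were at or above 3.56 CPM. Blocks were drawn by gene order and were not tested against each other, since the promoters of a block are not replicates.

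**Figure D1:**
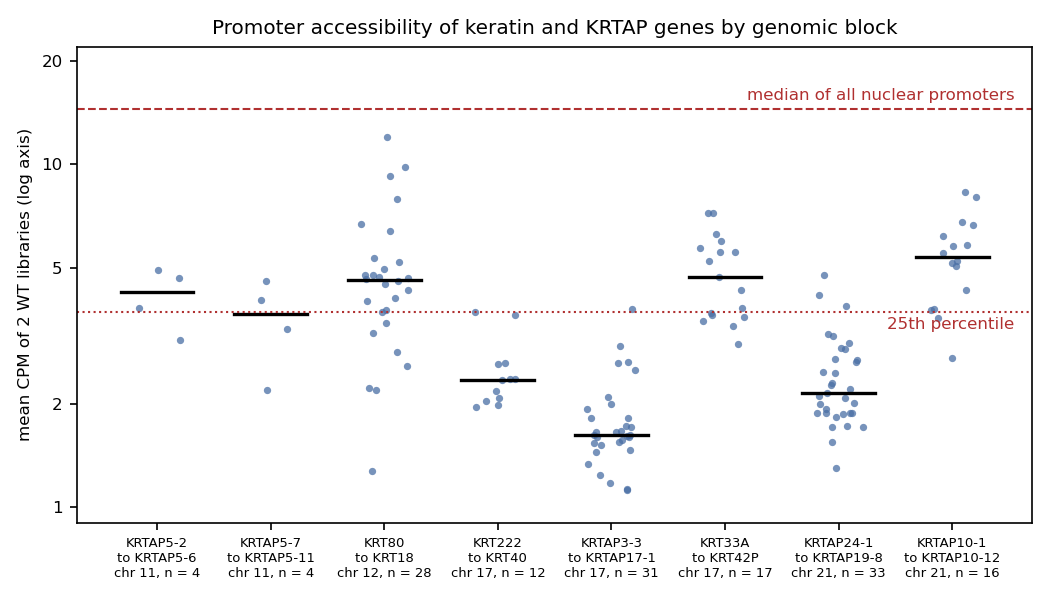
Mean WT level of each of the 145 promoters in CPM on a log axis (n = 2 libraries), by block in gene order, with the median of each block as a black bar. The dashed and dotted lines are the median (14.6 CPM) and the 25th percentile (3.71 CPM) of all nuclear promoters. No point reaches the dashed line, and the block from KRTAP3-3 to KRTAP17-1 lies lowest.

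The clusters on chromosomes 12, 17 and 21 gave way to open promoters at the row after the last member. On chromosome 12 KRT18 (9.80 CPM) was followed in gene order by EIF4B at 54.8 CPM, and on chromosome 17 KRT42P (5.96 CPM) was followed by EIF1 at 60.8 CPM. On chromosome 21 KRTAP19-8 (3.20 CPM) was followed by TIAM1 at 130.3 CPM, and the KRTAP10 block was preceded by TSPEAR-AS2 at 75.8 CPM and followed by UBE2G2 at 52.1 CPM. Of the 10 rows after each of these clusters, 7 (chromosome 12), 9 (chromosome 17), 8 and 8 (both clusters of chromosome 21) lay above the median promoter. The side was not the same everywhere: 1 of the 10 rows before KRTAP24-1 and 3 of the 10 before KRT80 were above the median. Before the chromosome 17 cluster and before the KRTAP10 block it was 6 of 10 each. On chromosome 11, 6 of the 10 rows before and 2 of the 10 after the first KRTAP5 block were above the median. Around the second KRTAP5 block 4 of the 10 before and 4 of the 10 after were above the median. Among the 12 rows of other genes inside the clusters, LINC02874 on chromosome 12 was the one above it (15.4 CPM).

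**Figure D2:**
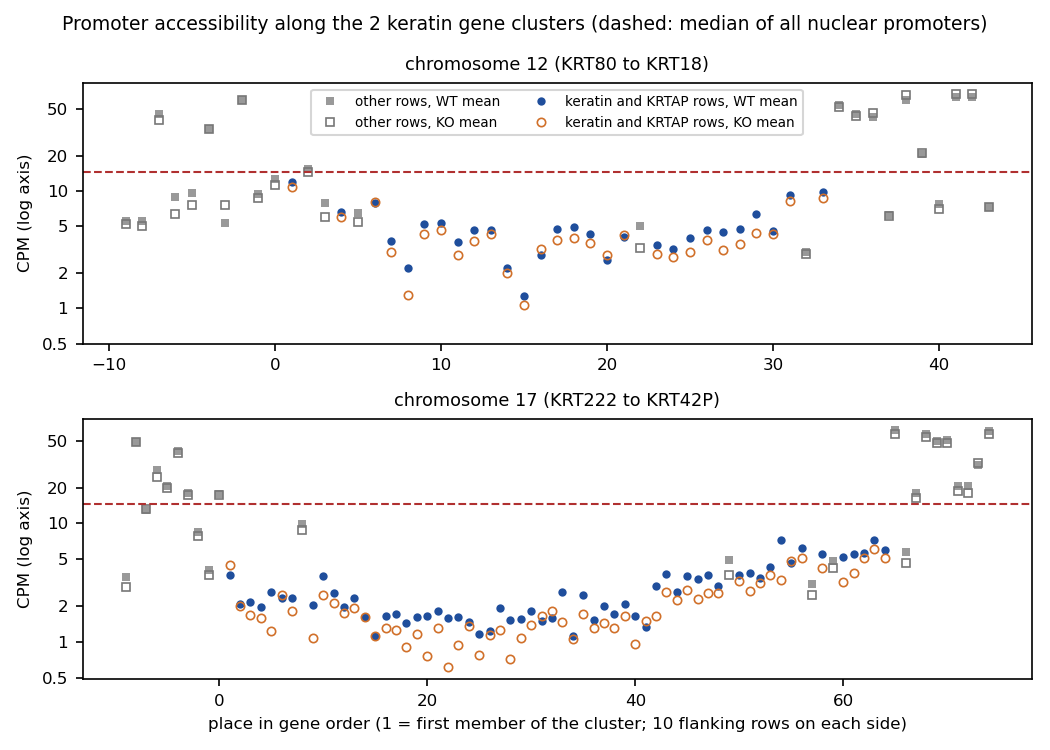
WT (filled) and KO (open) mean CPM on a log axis (n = 2 libraries each) along the chromosome 12 and chromosome 17 clusters in gene order, with 10 rows on each side. Circles are keratin and KRTAP rows, squares are other rows, and the dashed line is the median of all nuclear promoters (14.6 CPM). All circles lie below the line, and levels rise to EIF4B (54.8 CPM) and EIF1 (60.8 CPM) at the row after the last member.

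To ask whether loss of MORC2 changed accessibility at these clusters, KO was compared with WT over the whole promoter table with the quasi-likelihood test of edgeR, and a promoter was called at an adjusted p under 0.05. All 145 members passed the filter on low counts. Of these, 5 were called lower in KO (3.45%) and 0 higher, and 25 members, all of them lower in KO, had an unadjusted p under 0.05, where 8.87% of all promoters were lower at that threshold. DESeq2 called 0 members in either direction, against 7 promoters of the whole table. It had 4 members at an unadjusted p under 0.05, and the share over all promoters is not given here. Over all 27647 promoters tested with edgeR, 0.995% were called lower and 3.45% higher, and among promoters below the median WT level 1.47% were called lower. Because this contrast took part in the choice of the group, nothing is read from the excess. The summed level of the members was 512.3 and 491.6 CPM in WT and 432.8 and 411.3 CPM in KO. Both KO sums thus lay below both WT sums.

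KRT36 encodes a type I hair keratin. Its promoter had 87 and 49 fragments in WT and 30 and 66 in KO, with replicate 1 given first here and throughout. On the scaled level these were 9.03 and 5.43 CPM in WT and 2.75 and 3.87 CPM in KO, so both KO libraries lay below both WT libraries, and the WT libraries differed from each other by more than the KO libraries did. The log2 fold change was -1.09 (SE 0.21). The 95% exact Poisson intervals, which cover counting error only, were 7.24 to 11.1 and 4.01 to 7.17 CPM in WT and 1.86 to 3.93 and 2.99 to 4.92 CPM in KO, so the interval of WT replicate 2 overlapped that of KO replicate 2. The call rested on WT replicate 1: without this library the log2 fold change was -0.66 and KRT36 was not called. Without WT replicate 2 it was -1.40. In bulk libraries such as these, fewer cells with an exposed promoter and less exposure per cell cannot be told apart.

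The rows around KRT36 did not show a change of that size. On the one side, KRT37, KRT38, KRT32 and KRT35, all type I hair keratins, had log2 fold changes of -0.24, -0.48, -0.13 and -0.22. On the other side, KRT13, a keratin of stratified epithelia that do not cornify, had 0.03, KRT15, a keratin of basal cells, had -0.30, and KRT19 had -0.32. KRT35, next to KRT36, held 38 and 65 fragments in KO and 41 and 39 in WT. KRT13, on its other side, held 55 and 78 fragments in KO and 38 and 49 in WT, so that its KO and WT levels overlapped. The non-keratin rows LOC100505782, MIR6510 and LINC00974 had values of -0.39, -0.37 and -0.17. None of these 10 rows was called. The difference between KRT36 and its neighbours was not tested.

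**Figure D3:**
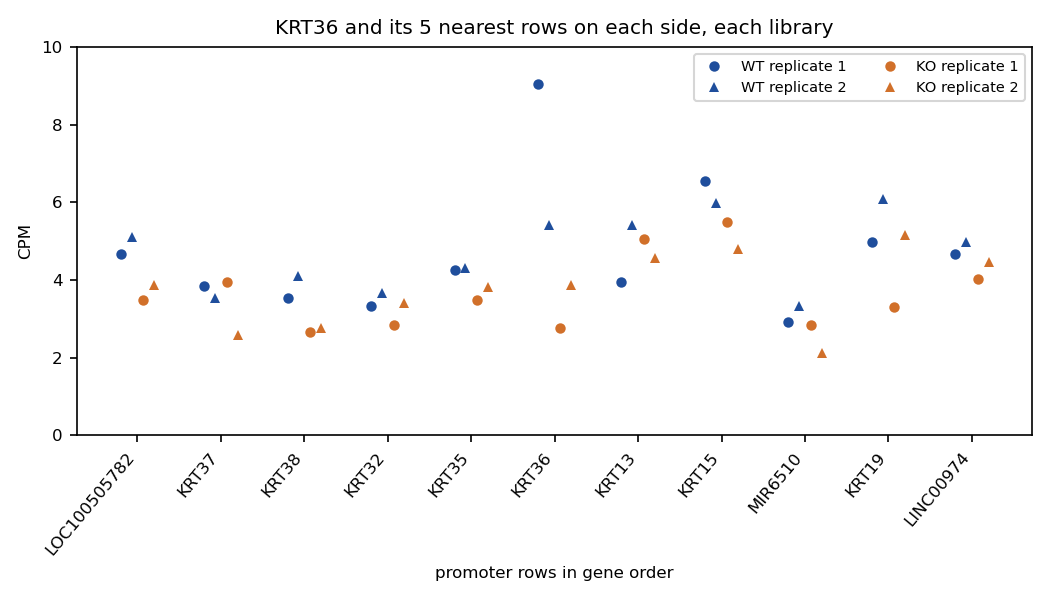
CPM in each of the 4 libraries for KRT36 and its 5 nearest rows on each side in gene order, with WT in blue and KO in orange (circles replicate 1, triangles replicate 2). KRT36 in WT replicate 1 (9.03 CPM) stands above all other points, and its WT replicate 2 (5.43 CPM) is at the level of KRT13 in the same library (5.43 CPM).

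The other 4 called members lay in 4 blocks. KRT9, the type I keratin of palm and sole epidermis, had 60 and 38 fragments in WT and 36 and 54 in KO (6.23 and 4.21 CPM in WT, 3.30 and 3.17 CPM in KO). Both KO levels were below both WT levels, with a log2 fold change of -0.70 (SE 0.23). KRT27, a type I keratin of the inner root sheath of the hair, had 22 and 27 fragments in WT and 11 and 25 in KO (2.28 and 2.99 CPM in WT, 1.01 and 1.47 CPM in KO), a log2 fold change of -1.03 (SE 0.33). KRTAP19-8, a glycine-tyrosine matrix gene and the last member of its array before TIAM1, had 36 and 24 fragments in WT and 18 and 24 in KO (3.74 and 2.66 CPM in WT, 1.65 and 1.41 CPM in KO). Its log2 fold change was -1.09 (SE 0.30). KRTAP2-2, a high sulfur gene of the chromosome 17 array, had 16 and 14 fragments in WT and 7 and 10 in KO (1.66 and 1.55 CPM in WT, 0.642 and 0.586 CPM in KO), with the lowest log2 fold change of any member, -1.39 (SE 0.43). In KRTAP2-2 the Poisson intervals of WT replicates 1 and 2 (0.950 to 2.70 and 0.848 to 2.60 CPM) overlapped those of both KO libraries. The KO intervals were 0.258 to 1.32 and 0.281 to 1.08 CPM. Intervals of WT replicate 2 at KRT9 (2.98 to 5.78 CPM) and KRTAP19-8 (1.70 to 3.95 CPM) also overlapped those of both KO libraries. The same held for WT replicate 1 at KRT27 (1.43 to 3.46 CPM). The interval of WT replicate 2 at KRT27 (1.97 to 4.35 CPM) overlapped that of KO replicate 2 (0.949 to 2.16 CPM). In all 5 called members both KO levels lay below both WT levels, but few fragments stood behind most of them. Over all promoters tested this order was found at 25.4%. The 5 were called on this same contrast, so nothing is read from the lack of overlap.

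These calls were not stable to the scaling or to the libraries used. With loess offsets, which remove a trend of fold change with abundance, only KRT36 was called among the members (log2 fold change -0.89), against 0.622% of all promoters called lower. With scaling by total count only, which moved the median of all promoters to 0.12, KRT36 was again the one member called (-0.94), and it was the only promoter of the whole table called lower (0.00362%). Without KO replicate 1 or without KO replicate 2, KRT36 alone was called among the members, where 143 (0.515%) and 4 (0.0144%) of all promoters were called lower. Without WT replicate 1, KRT27 and KRTAP20-3 were called, and without WT replicate 2, KRT79, KRT36, KRT9 and KRTAP19-8, beside 368 (1.32%) and 90 (0.324%) of all promoters (see the plot of the called members under each setting). KRT79 and KRTAP20-3 are named here because they became called in 1 such fit each.

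**Figure D4:**
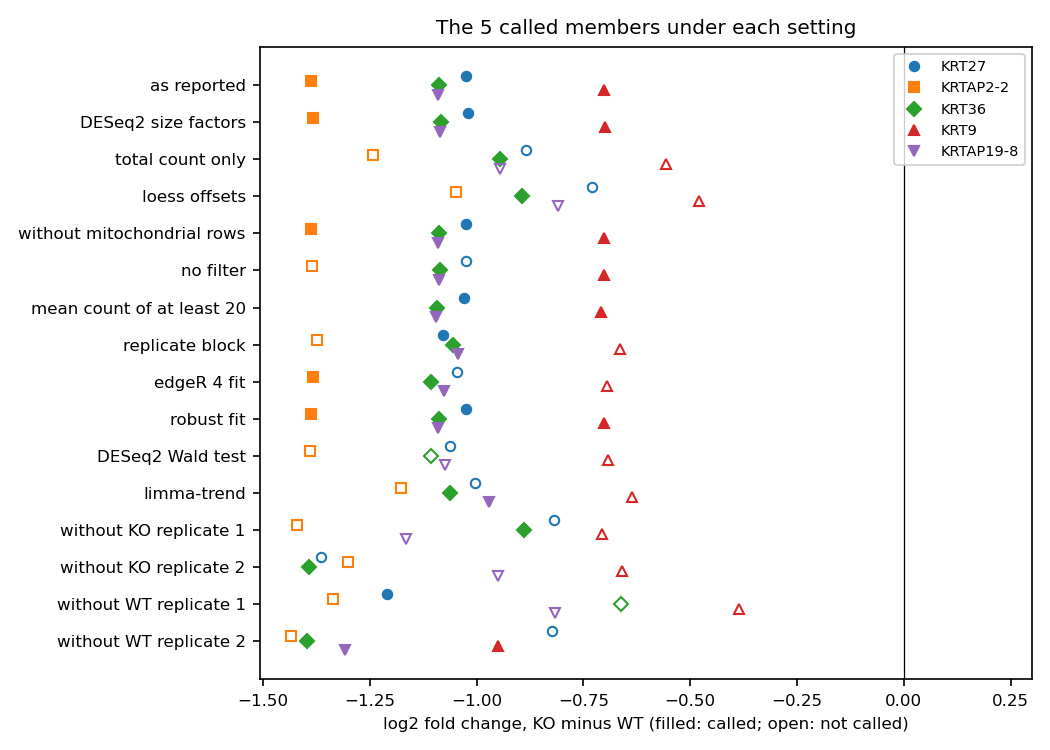
Log2 fold change, KO minus WT, of the 5 called members under each scaling, filter, test and left-out library, with filled symbols where the member was called and open symbols where it was not. All values lie below 0. KRT36 is open under the DESeq2 Wald test and without WT replicate 1 (-0.66), KRTAP2-2 has no symbol where a mean count of at least 20 was required, and KRT9 is closest to 0 in every setting but that without WT replicate 2.

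Most other members lay slightly lower in KO as well. Of the 145 members, 120 (82.8%) had a log2 fold change below 0, against 53.2% of all nuclear promoters tested. The members' median was -0.25, against -0.017 for all promoters tested. Both KO libraries were below both WT libraries at 67 members (46.2%, against 25.4% of all promoters) and above them at 3 members (against 25.2%), and the groups overlapped at 75. The 3 were KRTAP5-9, KRTAP4-5 and KRTAP9-9, which were named for lying there. A shift of the same kind was present at other promoters of low abundance, and is given here by deciles of all tested promoters in abundance. In the lowest decile the 56 members had a median of -0.31, against -0.29 for all promoters of that decile. In the second decile the values were -0.28 (31 members) and -0.27, in the third -0.24 (32 members) and -0.24, and in the fourth -0.22 (22 members) and -0.18. The 4 members in the fifth decile had a median of -0.16, against -0.03. Olfactory receptor promoters, of which 391 were tested, had a median of -0.28, with 82.1% below 0. With loess offsets the members' median was -0.023, and 79 of 145 were below 0.

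**Figure D5:**
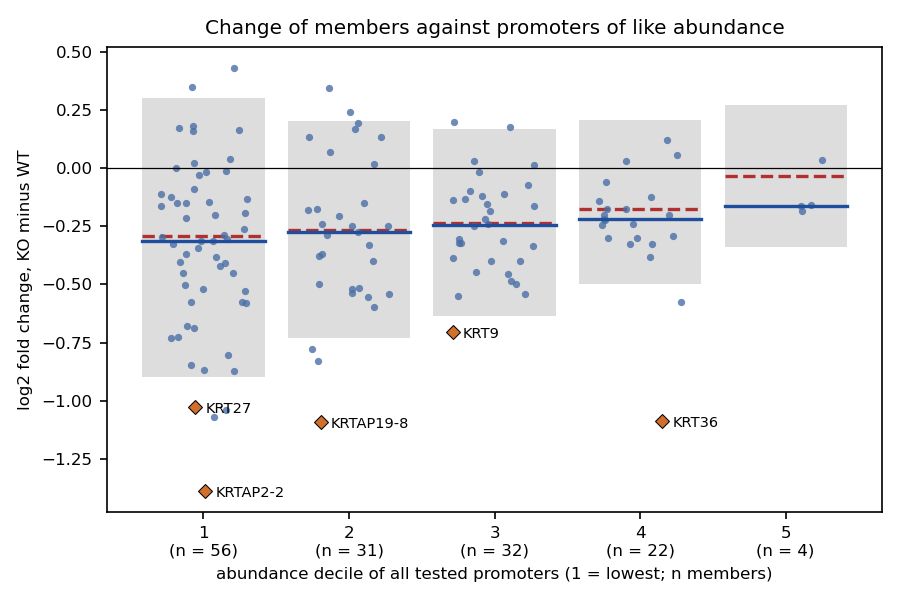
Log2 fold change, KO minus WT, of the members (points, with the 5 called ones as diamonds) by abundance decile of all tested promoters, from 1 as the lowest. Blue bars are the members' medians, red dashed bars the medians of all promoters in the decile, and grey boxes span their 5th to 95th percentiles. The blue and red bars nearly meet in the first 3 deciles (-0.31 and -0.29 in the lowest), and the 5 called members lie below the grey boxes.

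The median differed between blocks. It was lowest in the chromosome 17 KRTAP array (-0.45, 26 of 31 below 0) and remained at -0.14 there with loess offsets. The share below 0 was 83.9% in this array and 82.8% over all members. Most of its promoters lay in the lowest abundance decile, where all promoters had a median of -0.29. Differences between blocks were not tested. Summed over this array, the levels were 42.4 and 40.5 CPM in KO and 55.9 and 55.6 CPM in WT. In the adjoining block from KRT33A to KRT42P the median was -0.30 (16 of 17 below 0) and -0.12 with loess offsets. The chromosome 12 keratins had a median of -0.26 (24 of 28 below 0) and a summed level of 123.6 and 113.6 CPM in KO against 146.1 and 129.4 CPM in WT. In the first chromosome 21 array the median was -0.15 (25 of 33 below 0) and turned to 0.11 with loess offsets, and its summed levels of 70.5 and 67.1 CPM in KO lay below, but near, the lower of the WT sums (72.8 and 85.6 CPM). The KRTAP10 block had a median of -0.16 (14 of 16 below 0) and 0.03 with loess offsets. In the KRTAP5 block from KRTAP5-7 to KRTAP5-11 the sums overlapped between groups (14.2 and 10.8 CPM in KO, 13.7 and 14.5 CPM in WT).

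Grouped by role, all 11 type I hair keratins and all 6 type II hair keratins had log2 fold changes below 0, with medians of -0.29 and -0.33 (0.00024 and -0.093 with loess offsets). With loess offsets 5 of the 11 and all of the 6 were below 0. Of these 17 promoters only KRT36 was called. The 5 keratins of simple epithelia (KRT7, KRT8, KRT18, KRT19 and KRT20) had values from -0.16 to -0.60, and none was called. KRT8 and KRT18 had -0.16 (SE 0.16) and -0.18 (SE 0.16), each about the size of its error. KRT5 and KRT14 had -0.31 and -0.55, and KRT1 and KRT10 had -0.28 and -0.37, none of them called. Among the most accessible members KRT80 had -0.16, KRTAP10-7 -0.30, KRTAP10-4 -0.17, KRTAP10-10 -0.38, KRT17 -0.29 and KRT87P 0.04. The 22 glycine-tyrosine KRTAP promoters had a median of -0.19 and 7 of them were above 0.

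Beside the called members, the lowest values belonged to KRTAP1-1 (-1.07, SE 0.40) and KRTAP4-9 (-1.04, SE 0.41), both in the chromosome 17 array, with 7 and 15 and 6 and 15 fragments in KO against 18 and 13 and 16 and 13 in WT. At both, the KO levels lay below the WT levels, and neither was called. The highest values were those of KRTAP19-3 (0.43, SE 0.32), KRTAP20-4 (0.35, SE 0.37), KRTAP21-3 (0.34, SE 0.31), KRTAP19-5 (0.24, SE 0.31) and KRT222 (0.20, SE 0.23). The first 4 are glycine-tyrosine genes of 1 array on chromosome 21. At KRTAP19-3 the count was 18 and 47 in KO and 17 and 15 in WT, so only KO replicate 2 (2.76 CPM) stood above the WT libraries (1.77 and 1.66 CPM). At KRT222 only KO replicate 1 did so, with 5.41 CPM, against 3.46 CPM in KO replicate 2 and 3.63 and 3.77 CPM in WT. None of the 5 was called, and KO and WT levels overlapped at each.

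Promoters of desmosome and filament-anchoring genes had a WT median of 25.3 CPM, above that of the members (2.91 CPM). The median was 25.2 CPM for other intermediate filaments such as vimentin (VIM) and the lamins, and 20.2 CPM for epidermal and hair regulators. In that order, 9 of 17, 10 of 15 and 9 of 15 were above the median of all nuclear promoters. A median splits the rows evenly by definition, and these shares were not tested against an even split. Of 19 cornified envelope promoters with a row, out of 22 listed, only 1 was above the median of all nuclear promoters (LORICRIN, 17.5 CPM), and their own median was 4.77 CPM. In this list 2 were called lower and 0 higher, with a median log2 fold change of -0.37 over the 19. Over all promoters 0.995% were called lower, or 1.47% of those below the median WT level, and the 5 least abundant deciles of all promoters had medians between -0.29 and -0.03. The 2 were TCHH, which encodes trichohyalin of the inner root sheath (35 and 38 fragments in KO, 44 and 42 in WT, log2 fold change -0.81, SE 0.25) and FLG, which encodes filaggrin (28 and 47 in KO, 45 and 51 in WT, -0.94, SE 0.24). Among the 17 desmosome and filament-anchoring genes 1 was called higher, where 3.45% of all promoters were called higher. It was the desmocollin gene DSC3, with 866 and 1412 fragments in KO and 682 and 618 in WT (log2 fold change 0.22, SE 0.07). No promoter was called in either direction among the other intermediate filaments or the regulators. DESeq2 called 7 promoters over the whole table, all of them higher in KO.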

How the data were processed

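The deposited promoter table holds raw counts, whole fragments per promoter with 1 row per NCBI Gene ID and no normalisation by the authors. The authors trimmed paired-end reads, aligned them to CHM13 with bowtie2, discarded pairs of low mapping quality and removed duplicates with Picard. Their methods give promoters a width of 2 kb, centred on the start, but how this table was counted is not given in the sources used here. Midpoint or Tn5 offsets were not applied again. The deposited peak list, 1 list for both WT libraries, was not used, since no annotation of its build was at hand.

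Symbols and gene order came from a RefSeq gene table (28763 of 28775 IDs matched). Members and gene lists were chosen with earlier results of these data known. Counts were filtered with filterByExpr (27647 kept), TMM-scaled and compared, KO against WT, without covariates in edgeR 4.0.16 (legacy fit, R 4.3.3) with quasi-likelihood F-tests, with Benjamini-Hochberg adjustment over all promoters and a threshold of 0.05. The fit was tested on simulated data. It called many more promoters than the paper, which tested small windows and summarised them to promoters. Standard errors were derived from the F statistics. The study calls the WT replicates independent but does not say whether they were separate cultures, so the spread between them may be technical. Sums and medians of levels were not tested beyond this fit, since an exact two-sided permutation p for 2 against 2 libraries cannot be below 0.333.

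A new cluster began where 50 or more rows lay between members, and keratins and KRTAP genes of 1 cluster were set apart as blocks. Members named are those called, the 10 highest in WT, the 5 highest and 5 lowest fold changes, KRT36 with 5 rows on each side, and keratin pairs of known tissues. Alternatives were size factors of DESeq2 1.42.0 and its Wald test, total count, loess offsets, no mitochondrial rows, other filters, the edgeR 4 fit, a robust fit, a replicate block, limma-trend (limma 3.58.1), a threshold of 0.1, similar neighbours (within 25% in every library) counted once, and each library left out. The promoter of 1 marker gene is not reported here.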

Additional observations from a re-analysis of the deposited data

How the results depend on the processing

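The number of members called lower (5, beside 275 of all promoters) was 1 with total-count scaling (beside 1) and 1 with loess offsets (beside 172). It was 3 without a filter (beside 285) and 3 with the edgeR 4 fit (beside 168). With limma-trend it was 2 (beside 127), and with the DESeq2 Wald test 0 (beside 0). At an unadjusted p under 0.05 DESeq2 had 4 members, and the share over all promoters is not given here. The number of members called lower was 8 at an adjusted p under 0.1, where the share over all promoters is not given either. With a library left out it was between 1 and 4. Why the count moved was not tested. The median log2 fold change (-0.25) was -0.10 with total count, where the median of all promoters moved to 0.12, and -0.023 with loess offsets. With a library left out it was between -0.28 and -0.22. The median WT level (2.91 CPM) was 2.78 with total count and 4.20 without mitochondrial rows, and 2.99 to 3.01 from a single WT library. The 5 called members kept their direction under every alternative run. They were picked for large changes in these same libraries, so nothing is read from this. Of the 33 members whose values were followed singly, 11 changed sign under at least 1 alternative, none of them called. Examples are KRT37 (-0.24, and 0.099 without KO replicate 2), KRTAP21-3 (0.34, and -0.18 without KO replicate 2), KRT222 (0.20, and -0.077 without KO replicate 1) and KRT32 (-0.13, and 0.12 with loess offsets). With loess offsets the medians of the chromosome 21 arrays also changed sign (-0.15 to 0.11, and -0.16 to 0.027). For single named members, 318 values under other alternatives kept their call and their size to within the spread, 22 lost a call and 19 moved, and with a library left out 113, 14 and 5 did so.

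With a replicate block 3 members were called (KRT27, KRT36 and KRTAP19-8), beside 212 of all promoters called lower, and the members' median was -0.25. Deviations of libraries with the same number had a correlation of 0.00026, so the numbers were not taken to pair libraries. When a group is left with 1 library, that library is assumed to vary like the other group. Depth limits single members: the median member held 27 to 40 fragments in a library, and 14 to 48 members held under 20.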
